A study of Sus scrofa with 4 samples.

Results

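The 126 gene models of scaffold46278, an assembly fragment of the pig genome, were described in order along the fragment in 4 tissues of Tibetan pigs (Sus scrofa). Their identifiers consist of evm.model.scaffold46278 followed by a model number, and they are called here by that number. All identifiers of this form in any of the 4 deposited tables were taken, 126 of 18367 in all, with 0 reads where a table did not list one. The scaffold was chosen for its many lung-enriched models. Lung levels set against the other tissues are therefore the values that chose it, and they are given as a description.

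Heart, liver, lung and kidney were each represented by 1 RNA sequencing library, made from total RNA of the breed as sampled in the Ganzi prefecture of Sichuan, China. The labels name no treatment, and give neither the number of animals nor their age or sex. With 1 library per tissue there was no replicate error and no test. The 95% intervals below are exact (Poisson for a level, Clopper-Pearson for a share or a ratio of 2 counts) and cover counting error only. The liver library was the shallowest, with 4090775 reads on gene models, followed by kidney (5486480), lung (8853076) and heart (14062622), so that 1 read on a model of median length was worth between 0.0556 RPKM (heart) and 0.191 RPKM (liver). RPKM is a read count scaled to the length of the model and to the total reads of the library. In bulk tissue, fewer cells of a type and less RNA per cell cannot be told apart.

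Genes that lie next to each other on a chromosome can be unrelated and differ freely in tissue pattern. They can also be copies that arose by tandem duplication, or genes within reach of a shared regulatory region. A tissue is marked by genes of its specialised cells, such as contractile proteins in heart, plasma proteins and drug-handling enzymes in liver, surfactant proteins in lung and transporters in kidney, beside housekeeping genes that every cell uses. The identifiers are not paired with gene names in the files and 0 of 18367 matched the reference tables of pig genes, so the function of each model, the markers of each tissue and whether neighbours are copies of each other were not read.

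Model numbers ran from 1 to 148, and 22 numbers in between had no listed model. Scaffold46278 held more listed models than any other of the 3535 scaffolds. The members were of ordinary length, with a median of 1275 bases (range 231 to 5592) against 1278 bases over all models. Lengths were multiples of 3 for 124 of 126 members (98.4%), against 89.5% of all models, so nearly all are probably coding lengths.

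Levels along the scaffold varied widely in every tissue, with active and silent models side by side. At 1 RPKM or more, 84 members were detected in heart (66.7%, against 67.8% of all models), 81 in liver (64.3%, against 62.4%), 96 in lung (76.2%, against 76.3%) and 90 in kidney (71.4%, against 71.9%). All 4 libraries detected 71 members (56.3%, against 55.8% of all models), and 20 members stayed under 1 RPKM in each library (15.9%, against 16.4%). These shares were near those of all models. The median level of the members, as deposited, was 13.4 RPKM in lung, 8.68 in kidney, 4.41 in heart and 3.22 in liver, where all models had medians of 9.96, 7.86, 5.49 and 3.17.

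**Figure D1:**
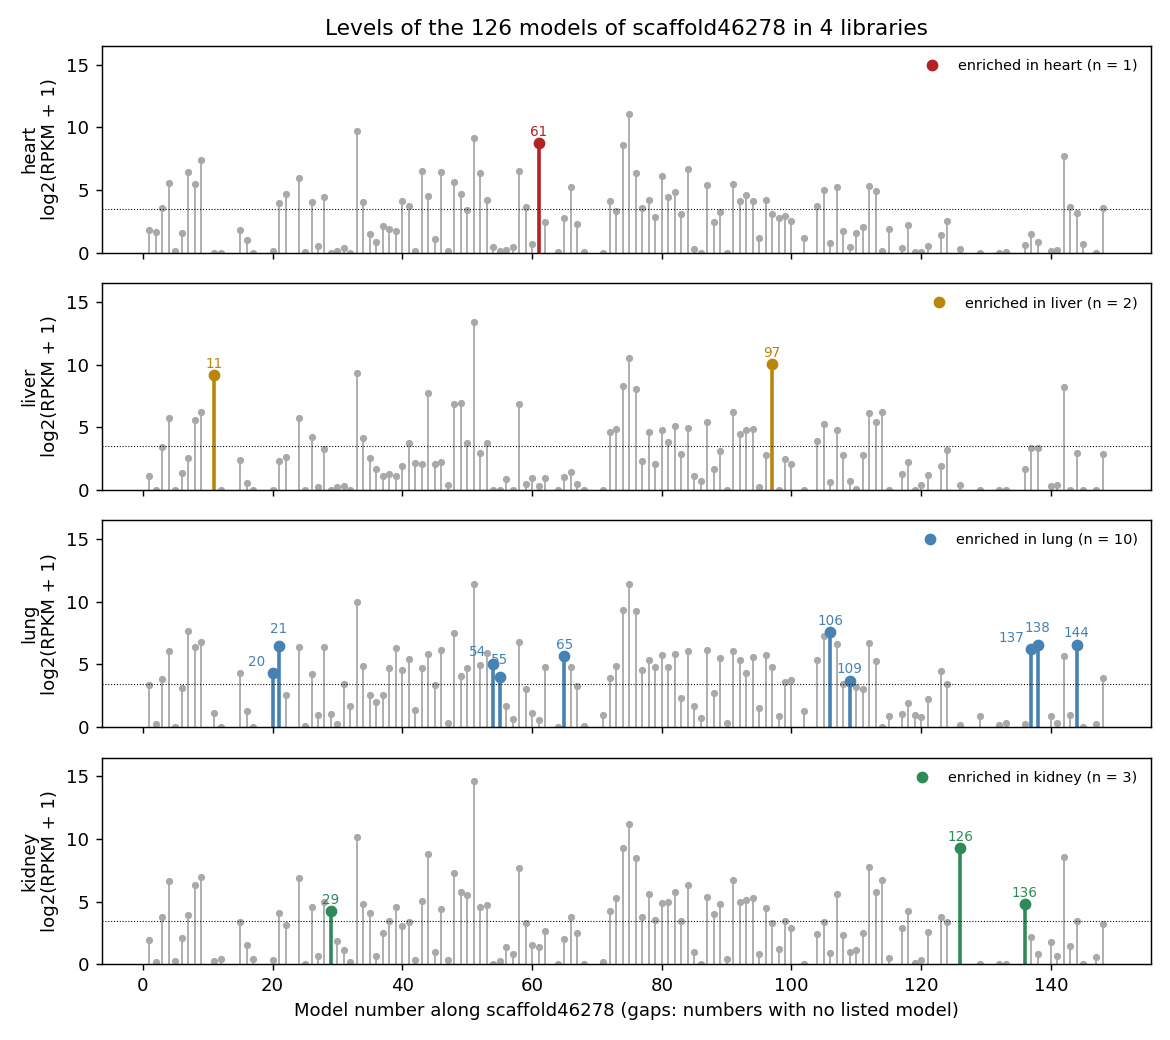
Level of each of the 126 models as log2(RPKM + 1) against its model number, with 1 panel per library; coloured points are models enriched in that tissue, grey points are all others, and the dotted line marks 10 RPKM. The coloured models are spread over the whole length (lung 10, kidney 3, liver 2, heart 1), and models 33, 51, 74 and 75 are high in all 4 panels.

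Divided into 4 stretches of 37 model numbers, a division chosen after the values were seen, the scaffold was active in the largest share of models in the third stretch and in the smallest share in the last. Of the 35 members numbered 75 to 111, 26 were detected in all 4 libraries and 2 were under 1 RPKM in each. Of the 26 members numbered 112 to 148, 9 were detected in all 4 libraries and 8 were under 1 RPKM in each. The first stretch had 17 of 31 and the second 19 of 34 members detected everywhere. The last stretch also had the most gaps, since 11 of the 22 numbers without a listed model fell there. Its median level was 0.915 RPKM in lung and 4.18 in kidney, whereas in the third stretch lung stood at 27.4 and kidney at 10.6. The 16 tissue-enriched members (12.7%, against 9.32% of all models) were spread over the stretches, with 4 in the first, 4 in the second and 3 in the third. The last held 5, of which 3 were of lung, the tissue that chose the scaffold, and 2 of kidney.

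Model 51, of 528 bases, had the highest level of any member in kidney and in liver. Its level was 562 RPKM in heart (95% interval 545 to 579), 10799.9 in liver (10662 to 10939), 2697 in lung (2650.4 to 2745) and 25286 in kidney (25104 to 25470.1). Kidney was highest and heart lowest, and no 2 of the 4 counting intervals overlapped. Kidney stood 2.34-fold above liver (2.31 to 2.38), 9.37-fold above lung (9.20 to 9.55) and 45.0-fold above heart (43.6 to 46.4). After median-ratio scaling, which sets the typical model (by its ratio to the geometric mean of the libraries) to the same level in every library, kidney and liver were closer, at 19963 and 17590.1 RPKM. In the kidney library model 51 had more reads than any other model of any scaffold, 73251 or 1.34% of the library (1.33 to 1.34), and ranked 3 by RPKM. By RPKM it ranked 7 in liver and 18 in lung.

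Because of this model, the members took 2.09% of kidney reads (2.07 to 2.10), against 1.11% of liver (1.10 to 1.13), 1.07% of lung (1.06 to 1.07) and 0.580% of heart reads (0.576 to 0.584). Model 51 supplied 64.0% of the members' reads in kidney, 51.1% in liver, 13.3% in lung and 5.12% in heart. Without it, the other 125 members took 0.925% of lung reads (0.919 to 0.931), 0.751% of kidney (0.744 to 0.758), 0.550% of heart (0.546 to 0.554) and 0.545% of liver reads (0.538 to 0.552). Kidney thus ranked first with model 51 and lung ranked first without it.

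At 100 RPKM or more in all 4 libraries there were 4 members (3.17%, against 1.61% of all models): 33, 51, 74 and 75. Model 75, of 477 bases, was the highest member in heart, at 2115 RPKM (2080.3 to 2150.1), and in lung, at 2758 (2708 to 2808). In lung its interval overlapped that of model 51, at 2697 RPKM (2650.4 to 2745). Model 75 stood at 1474 RPKM in liver (1421 to 1529) and 2337 in kidney (2279 to 2396). Highest and lowest library differed 1.87-fold. After median-ratio scaling liver was highest, at 2401 RPKM, and lung stood at 1995. Its neighbours on both sides were also high: model 74 was at 660.2 RPKM in lung, 606 in kidney, 392 in heart and 304 in liver, and model 76 at 597, 359.8, 81.5 and 269 RPKM in the same order. Model 33, of 567 bases, was at 1134 RPKM in kidney, 1001 in lung, 839 in heart and 651 in liver. An even level, taken as 10 RPKM or more everywhere with at most 2-fold between the libraries, was shown by 9 members (7.14%, against 3.51% of all models). They were models 8, 26, 33, 34, 72, 75, 87, 93 and 113, and so lay between numbers 8 and 113. This list depended on the scaling. After median-ratio scaling, models 26, 72, 87, 93 and 113 differed by more than 2-fold, model 72 from 10.3 RPKM in lung to 37.6 in liver. Other members came within the limit, such as model 74, from 423 RPKM in heart to 495 in liver.

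Enrichment in a tissue required 10 RPKM there and a ratio of at least 5 between its RPKM + 1 and that of each of the 3 other libraries, a scale that understates the difference of low models. By this rule 10 members were lung-enriched (7.94%, against 3.67% of all models), 3 kidney-enriched (2.38%, against 2.00%), 2 liver-enriched (1.59%, against 1.56%) and 1 heart-enriched (0.794%, against 2.08%). Nothing is read from the lung count, for which the scaffold was chosen. It was the highest count on any scaffold, but scaffold47964 had 9 such models among 66 (13.6%). The kidney and liver shares were near those of all models.

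**Figure D2:**
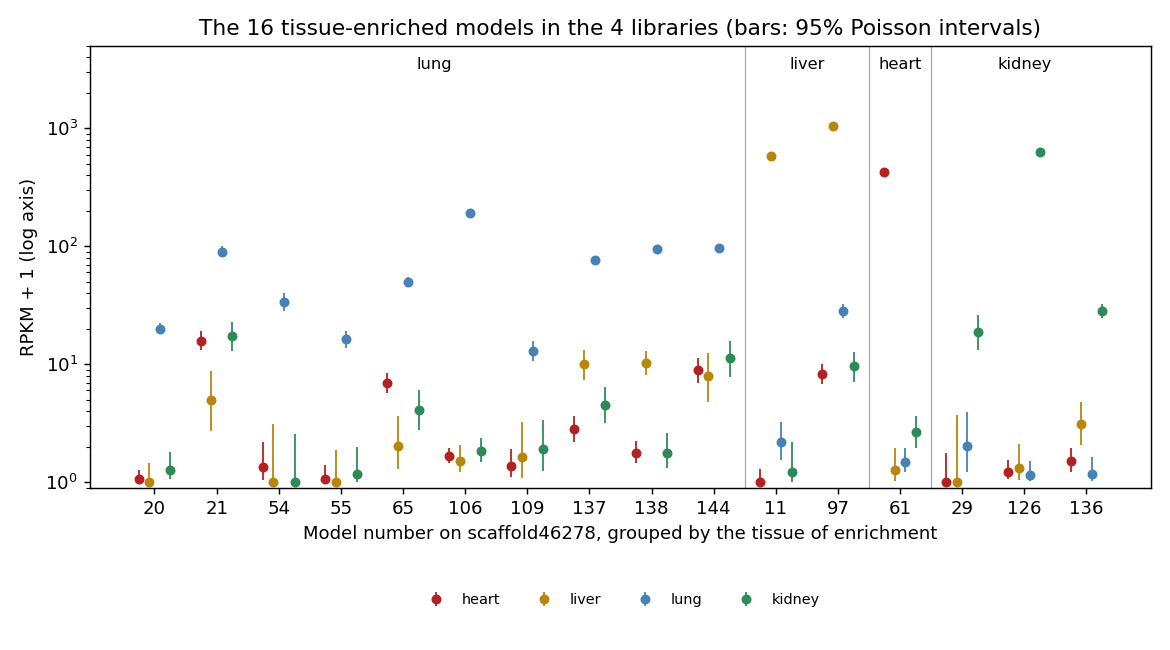
RPKM + 1 on a log axis for the 16 enriched members in each of the 4 libraries, grouped by the tissue of enrichment; bars are 95% Poisson intervals, and a point at 1 is a model with 0 reads. The 10 lung members lie between 12.0 and 192 RPKM in lung, and the other libraries range from 0 reads to 16.3 RPKM for them.

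Among the lung-enriched members, 5 were nearly silent elsewhere. Model 106, of 3258 bases, was at 192 RPKM in lung (187 to 197), 0.655 in heart (0.442 to 0.935), 0.525 in liver (0.211 to 1.08) and 0.839 in kidney (0.470 to 1.38). Lung was the only library above 1 RPKM and exceeded kidney, the next, 228-fold (138 to 408). Model 106 had the highest lung level of the 10 and lay between 2 other models that were high in lung. On one side, model 105 was at 153.9 RPKM in lung, 30.1 in heart, 37.9 in liver and 9.35 in kidney, and on the other, model 107 was at 99.5, 36.1, 26.0 and 46.9 RPKM. Both neighbours were thus well above 1 RPKM in every tissue, and 106 was not.

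Models 54 and 55 formed a neighbouring pair that was all but absent outside lung. Model 54 was at 32.6 RPKM in lung (27.1 to 38.9) and 0.334 in heart (2 reads), with 0 reads in liver and kidney. Model 55 was at 15.3 RPKM in lung (12.8 to 18.1), 0.0697 in heart (1 read) and 0.179 in kidney (1 read), with 0 reads in liver. Against the floor of 3 counts per library, lung was at least 18.9-fold higher than liver and at least 25.4-fold higher than kidney for model 54, and at least 21.3-fold higher than liver for model 55. The exact lower 95% limits of these ratios, which include the counting error of the lung reads, were 15.2, 20.4 and 17.1. The models beside the pair did not share this pattern: model 53 was at 58.3 RPKM in lung, 25.4 in kidney, 17.9 in heart and 12.3 in liver, and model 56 at 2.18, 1.60, 0.125 and 0.858 RPKM.

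The pair of models 20 and 21 combined both kinds of pattern. Model 20 was at 19.0 RPKM in lung (17.0 to 21.2), 0.0726 in heart (2 reads) and 0.279 in kidney (3 reads), with 0 reads in liver, where lung was at least 50.8-fold higher than the floor (exact lower 95% limit of the ratio 41.1). Model 21, of 492 bases, was at 89.3 RPKM in lung (80.7 to 98.6), 14.9 in heart (12.2 to 18.1), 3.97 in liver (1.72 to 7.83) and 16.3 in kidney (11.8 to 21.9). Only model 20 was silent outside lung, and model 21 was at 10 RPKM or more in 3 tissues. Model 17, the listed model before the pair, had 2 reads in kidney and none elsewhere. Model 22, which follows it, was highest in heart, at 24.0 RPKM, against 5.17 in liver, 4.94 in lung and 7.84 in kidney.

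In the pair of models 137 and 138, liver was the second tissue. Model 137 was at 75.0 RPKM in lung (69.6 to 80.7), 8.95 in liver (6.40 to 12.2), 1.82 in heart (1.21 to 2.64) and 3.51 in kidney (2.17 to 5.36). Model 138 was at 93.4 RPKM in lung (88.6 to 98.5), 9.30 in liver (7.15 to 11.9), 0.773 in heart (0.458 to 1.22) and 0.770 in kidney (0.310 to 1.59). Both had the same order of lung above liver, by 8.38-fold (6.09 to 11.8) and 10.05-fold (7.80 to 13.2), with the liver intervals of the pair overlapping. Directly before them lay model 136, which was kidney-enriched at 27.3 RPKM (23.6 to 31.5), against 2.11 in liver (1.05 to 3.77), 0.502 in heart (0.230 to 0.953) and 0.177 in lung (2 reads). Opposite patterns therefore stood next to each other, since 136 was under 1 RPKM in lung and 137 highest there. The lung interval of model 136 (0.0215 to 0.640) overlapped its heart interval, so which of these libraries was lowest was not resolved. Model 140, the next listed after the pair, reached at most 2.34 RPKM, in kidney.

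Single lung-enriched members were 65, 109 and 144, beside 106. Model 65 was at 48.6 RPKM in lung, 5.96 in heart, 1.04 in liver and 3.10 in kidney. Model 109 was at 12.0 RPKM in lung (9.59 to 14.9) and under 1 RPKM in the others, with 0.924 in kidney, 0.620 in liver and 0.361 in heart. Model 144, of 498 bases, was at 94.8 RPKM in lung (85.9 to 104), 7.85 in heart, 6.87 in liver and 10.2 in kidney. Its levels in the other 3 libraries had overlapping intervals.

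Thus 6 of the 10 lung-enriched members lay in 3 runs of 2 neighbours and 4 lay alone. A run of 2 or more lung-enriched models was found on 39 of the 3535 scaffolds, and the longest run on any scaffold was 3. Only 20 scaffolds had 50 or more listed models, so most had far less room for a run than scaffold46278. The runs also use the lung values that chose the scaffold, and are a description. Just inside the 5-fold limit for lung were models 21, 109 and 65, with ratios of (RPKM + 1) of 5.22, 6.77 and 7.12, and just outside it were models 31, 62 and 105, with 4.68, 4.51 and 3.99. Model 31 would also have missed the minimum level, at 9.55 RPKM in lung.

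The lung calls depended on how the libraries were scaled. Relative to median-ratio scaling over 10247 models above 1 RPKM in all 4 libraries, deposited levels stood 0.47 higher in lung and 0.34 higher in kidney, and 0.70 lower in liver and 0.11 lower in heart, on the log2 scale. After this scaling 5 of the 10 lung-enriched members met the rule: 20, 54, 55, 106 and 144. Models 54 and 55 were then the only lung-enriched neighbours. Models 21, 65, 109, 137 and 138 then had ratios below 5, at 3.85, 4.86, 4.83, 3.55 and 4.25, and model 109 was also below the minimum level, at 8.70 RPKM in lung. Lung had the highest level of the 4 libraries in 66 of 126 members as deposited (52.4%, against 44.1% of all models) and in 45 after scaling (35.7%, against 33.5%). The scaled medians of the members were 9.70 RPKM in lung, 6.85 in kidney, 5.25 in liver and 4.76 in heart. Over all models they were 7.21, 6.20, 5.16 and 5.93. Liver thus moved above heart for the members and not for all models.

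**Figure D3:**
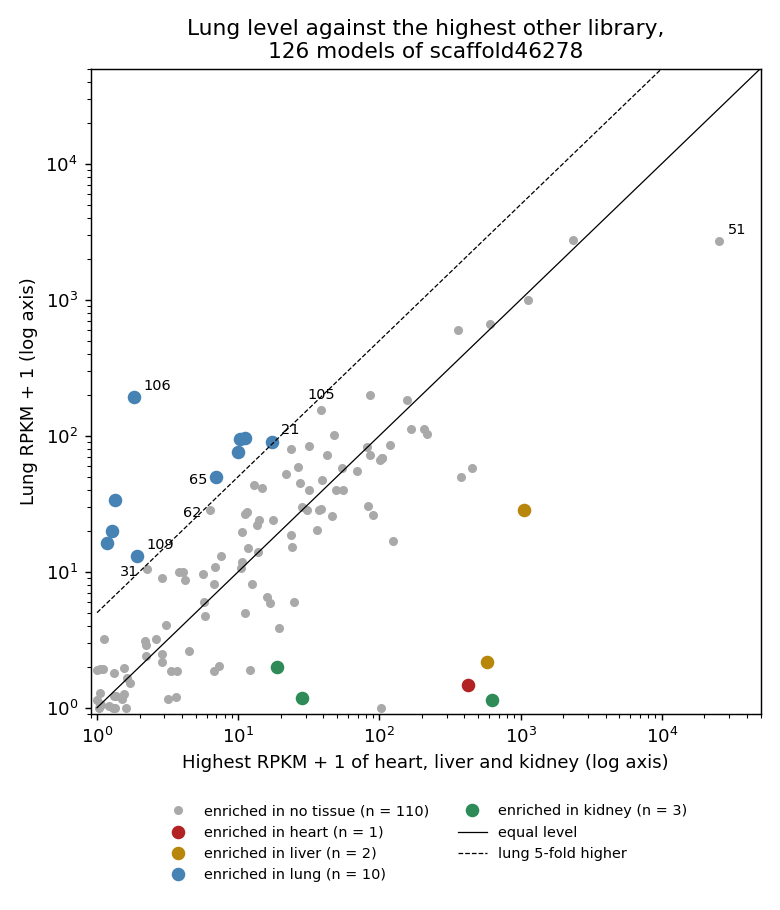
Lung RPKM + 1 against the highest RPKM + 1 of heart, liver and kidney, on log axes, 1 point per model; the solid line marks equal levels, the dashed line a 5-fold higher lung level, and colours the tissue of enrichment. Of the lung members, 106 lies farthest from the dashed line with a ratio of 104.8 and 21 nearest with 5.22, while models 62 and 105 lie just below it.

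Of the 6 members enriched in another tissue, 4 (models 11, 61, 97 and 126) were higher in their tissue than any lung-enriched member was in lung. In liver, model 97, of 849 bases, reached 1052 RPKM (1018 to 1087), against 7.29 in heart (5.84 to 8.99), 27.4 in lung (23.8 to 31.4) and 8.59 in kidney (6.13 to 11.7). Model 11, of 858 bases, was at 580.1 RPKM in liver (555 to 606), 1.18 in lung (9 reads) and 0.212 in kidney (1 read), with 0 reads in heart. Both were far above every other library in liver, 97 by 38.4-fold over lung (33.4 to 44.4) and 11 by 490-fold over lung (257 to 1072). They lay far apart, at the places 10 and 88 of the 126 listed models, and no enriched member of any tissue was adjacent to either. On the RPKM + 1 scale, their ratios to lung were 37.1 for model 97 and 266 for model 11 as deposited, and 82.3 and 509 after median-ratio scaling.

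Heart had model 61, of 1875 bases, at 423 RPKM (415 to 431), against 0.261 in liver (2 reads), 0.482 in lung (8 reads) and 1.65 in kidney (17 reads). Heart exceeded kidney, the next library, 256-fold (159.8 to 439.7). Its next listed neighbour, model 62, was highest in lung, at 27.4 RPKM against 4.35 in heart, 0.873 in liver and 5.30 in kidney, and model 60 before it reached at most 1.87 RPKM, in kidney.

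Kidney had models 29, 126 and 136. Model 126, of 1569 bases, was at 625 RPKM in kidney (609 to 642), 0.227 in heart (5 reads), 0.312 in liver (2 reads) and 0.144 in lung (2 reads). Kidney exceeded liver 2007-fold, with an interval of 555 to 16575 that reflects the few liver reads. It stood isolated, since models 124 and 129, the nearest listed, reached at most 9.73 and 0.879 RPKM. Model 29, of 336 bases, was at 17.9 RPKM in kidney (12.3 to 25.1) and 1.01 in lung (3 reads), with 0 reads in heart and liver. Kidney was at least 28.2-fold higher than heart and at least 8.20-fold higher than liver, against the floor of 3 counts, with exact lower 95% limits of 21.7 and 6.30. The level of model 29 rests on 33 kidney reads. For model 136, given above, the ratio of kidney to liver on the RPKM + 1 scale was 9.10 as deposited and 5.09 after median-ratio scaling.

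By a rule for tissue pairs (10 RPKM in each and at least 5 times the others, on the RPKM + 1 scale), chosen with values known, 3 members were called as deposited. Model 114 belonged to liver and kidney, at 74.1 RPKM in liver (65.3 to 83.6) and 102 in kidney (93.2 to 112), with 1 read in heart and 0 in lung. Which of the 2 tissues was higher depended on the scaling: kidney exceeded liver 1.38-fold (1.18 to 1.61) as deposited, and on the RPKM + 1 scale the ratio was 0.671 after median-ratio scaling. Model 7 belonged to heart and lung, at 85.4 and 197 RPKM, against 4.96 in liver and 14.2 in kidney. Model 39 belonged to lung and kidney, at 79.5 and 22.8 RPKM, against 2.29 in heart and 1.19 in liver. Over all models these groups took 1.26%, 0.604% and 0.648%.

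As deposited, no member was low in lung alone, which required 10 RPKM in each other library and a ratio of at least 5 to lung (0 of 126, against 0.376% of all models). Model 142, named after its values were seen, came near this, at 49.0 RPKM in lung against 205 in heart, 301 in liver and 376 in kidney. After median-ratio scaling model 142 met the rule, at 35.4 RPKM in lung against 221 in heart, 491 in liver and 297 in kidney. Liver alone was low for 2 members (1.59%, against 1.12% of all models). Model 43 was at 3.08 RPKM in liver (1.72 to 5.08), 88.5 in heart, 25.1 in lung and 32.6 in kidney, and model 66 at 1.62 RPKM in liver (0.742 to 3.08), 36.1 in heart, 27.2 in lung and 12.5 in kidney. After median-ratio scaling model 43 stood at 5.01 RPKM in liver and 18.2 in lung, and model 66 at 2.64 in liver and 9.87 in kidney, so that neither met the rule.

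Pairs of tissues that leave lung out use no lung value. They are not independent of the choice of the scaffold, because enrichment in lung also required low levels in heart, liver and kidney, and each library enters more than 1 pair, so the counts are a description. Over the 106 members at 1 RPKM or more in any library, 11 were at least 4-fold higher in heart than in liver on the RPKM + 1 scale (10.4%, against 14.1% of 15357 models) and 8 were higher in liver than in heart (7.55%, against 7.03%). Kidney was higher than heart in 15 members (14.2%, against 12.5%) and lower in 3 (2.83%, against 6.27%). Kidney was higher than liver in 12 members (11.3%, against 14.4%) and lower in 3 (2.83%, against 3.40%). The median member differed by 0.024 between heart and liver, heart minus liver in log2(RPKM + 1), where the median of all models was 0.46. For kidney minus heart the medians were 0.48 and 0.31, and for kidney minus liver 0.80 and 0.87.

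**Figure D4:**
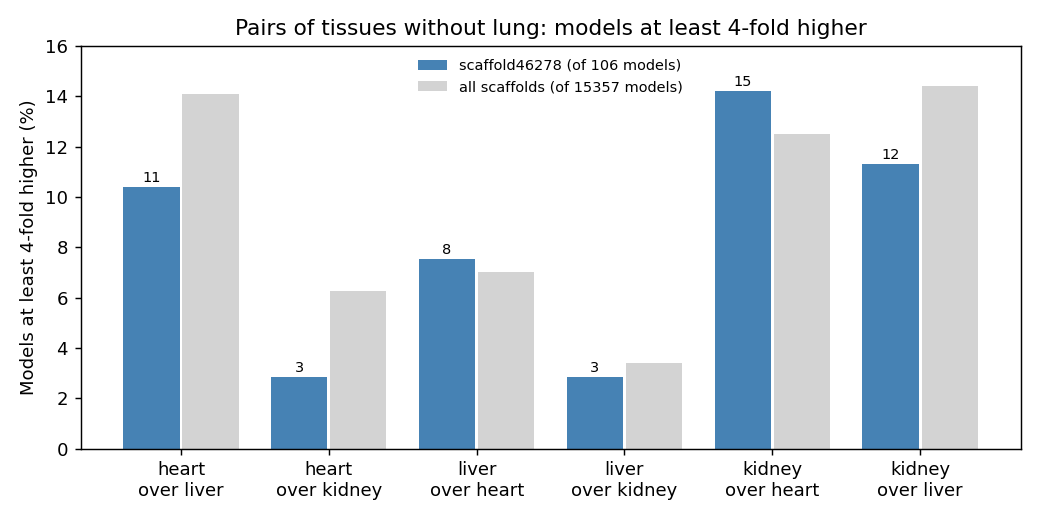
Percentage of models at least 4-fold higher in the first tissue than in the second, on the RPKM + 1 scale, for the 106 members and for all 15357 models; numbers over the bars count members. For 3 of the 6 comparisons the bars differ by less than 2 percentage points, and the widest gap is 10.4% against 14.1% for heart over liver.

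After median-ratio scaling, with 107 members and 15266 models tested, the splits narrowed or turned. Kidney was then higher than liver in 6 members (5.61%, against 7.37% of all models) and lower in 8 (7.48%, against 5.63%), so the side with more members changed, while over all models it did not. Against heart, kidney was higher in 9 (8.41%, against 9.60%) and lower in 5 (4.67%, against 7.97%). Between heart and liver, 9 members were higher in heart (8.41%, against 10.6%) and 11 in liver (10.3%, against 9.69%), which turned the order for the members and not for all models.

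The members called in these pairs were not only the enriched ones. Heart over liver was led, after model 61, by models 43, 46 and 7. Model 46, of 2076 bases, was at 3.77 RPKM in liver, 20.8 in kidney, 71.5 in lung and 85.3 in heart, low in liver and higher in the rest. Liver and kidney were both above heart for model 44, at 453 RPKM in kidney, 216 in liver, 56.9 in lung and 22.3 in heart. Model 49 was at 123 RPKM in liver, 54.2 in kidney, 24.8 in heart and 15.7 in lung. Models 43 to 52 thus included members lowest in liver (43, 46 and 52) and members high in liver and kidney (44 and 51) within 10 consecutive numbers. Of those lowest in liver, only model 43 met the rule for liver alone, as deposited. Model 52 was at 6.62 RPKM in liver, 23.4 in kidney, 29.2 in lung and 81.8 in heart. After median-ratio scaling it stood at 10.8, 18.5, 21.2 and 88.3 RPKM in the same order.

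Likeness between neighbouring levels was weak in every library. Over 90 pairs of neighbouring members, both at 1 RPKM or more in any library, the Spearman correlation of log2(RPKM + 1) was 0.25 in kidney, 0.25 in liver, 0.20 in heart and 0.11 in lung. Over 11139 such pairs on all scaffolds it was 0.12, 0.13, 0.11 and 0.11. Neighbouring pairs share a library and overlap in their members, so these values are a description. For the level of a model relative to its own mean over the 4 libraries, on the same log2 scale, the correlations between neighbouring members were 0.28 in lung, 0.24 in kidney, 0.025 in liver and -0.032 in heart, against 0.16, 0.18, 0.16 and 0.20 on all scaffolds. By the Spearman correlation lung was thus lowest by level and highest by relative level, and both contain the lung values that chose the scaffold. By level, the Pearson correlation was 0.20 in lung, close to the 0.22 in heart, 0.23 in liver and 0.23 in kidney.

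At the extremes of length, model 105, the longest member at 5592 bases, had 7621 lung reads and was named above. Model 145, the shortest at 231 bases, had 2 reads in heart and 0 in the other libraries, where 0 reads allow up to 3.17 RPKM in liver, 1.47 in lung and 2.37 in kidney by the floor of 3 counts. Its absence from liver, lung and kidney was therefore not measurable at 1 RPKM.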

How the data were processed

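Per the labels' protocols, RNA isolated with Trizol went into Illumina TruSeq libraries. TopHat, a spliced read aligner, is named without a version, per the submitters' processing notes. Not stated there are the counter, its use of strand and of multiply matching reads, the build and the annotation, so reads on near-identical or overlapping neighbours may be split. The authors deposited, per the file headers, a whole read count per model and its RPKM, with model length and library total. In all 4 tables the counts summed to that total and RPKM was recovered from count, length and total (relative tolerance 1e-12). None listed a model at 0 reads. Levels, ratios of RPKM + 1 (pseudocount 1), intervals and calls were computed in Python 3.11.15 with numpy 2.4.6, scipy 1.17.1 and pandas 2.3.3, and plotted with matplotlib 3.10.9. The rules were tested on simulated data. The members, rules and alternatives were chosen with earlier results of these data known. Named are all enriched members, the highest per library, the 3 nearest the lung limit on either side, those beside the runs of 2, those low in lung alone, and the longest and shortest. The others were named after their values were seen. Alternatives changed the scaling, minimum level, fold, pseudocount and treatment of missing models.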

Additional observations from a re-analysis of the deposited data

How the results depend on the processing

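No paired analysis was possible because there was 1 library per tissue, and none could be left out. Of 68 counts recomputed with another choice, 46 stayed within 1.5 times of the reported count. The 46 include the tissue pairs recounted without the 1 RPKM filter, which could not change. A 4-fold ratio of RPKM + 1 already requires more than 1 RPKM in the higher library. For 25 named members, the log2 difference between the highest and the next library stayed within its counting interval in 16 under median-ratio scaling and in 18 with a pseudocount of 0.1. The sign of that difference did not change, but the highest library became another one after median-ratio scaling for 2 of 30 named members, model 75 (lung to liver) and model 114 (kidney to liver). Models 17 and 145 had too few reads for this. Lung-enriched runs had a length of at most 2 with median-ratio scaling, with a fold of 3 or 10 and with strictly consecutive numbers. Of the reported runs, only that of models 54 and 55 remained with median-ratio scaling and at a fold of 10. With median-ratio scaling, 5 members were lung-enriched (10 as reported) and 2 heart-enriched (1). Heart over kidney then held 5 (3), liver over kidney 8 (3), kidney over heart 9 (15) and kidney over liver 6 (12). At a fold of 10, 4 were lung-enriched and 1 kidney-enriched (3), and at a fold of 3, 2 were heart-enriched. With a pseudocount of 0.1, 2 were heart-enriched, and heart over liver held 20 (11), heart over kidney 9, liver over kidney 5 and kidney over liver 24. Of the liver-enriched members, 1 of 2 was listed in all 4 tables. At 5 RPKM, 53 members were detected in liver (81). At a fold of 2 between tissues, heart over liver held 26, liver over heart 14 (8), heart over kidney 16, kidney over heart 30, liver over kidney 9 and kidney over liver 43. Looser or stricter folds and levels change counts by construction, and for the other settings the cause was not tested. Depth limits low levels most in the liver library.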
